A study of Mus musculus with 34 samples.

Results

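The regions described here are CTCF binding sites of mouse bone marrow-derived dendritic cells (BMDCs) that lay away from promoters, carried acetylated chromatin and had no CTCF peak once CTCF was depleted. They were taken from the 60537 CTCF peaks of unstimulated control cells in 3 steps. Of these peaks, 46166 shared no base with a CTCF peak of the depleted cells, and 37857 of those also lay outside every annotated promoter, defined as 2.5 kb on either side of the start of a gene's longest transcript. The 2903 of them that shared at least 1 bp with an H3K27ac peak of unstimulated control cells are called the lost acetylated sites. The sites were thus chosen by 3 readouts (CTCF in control cells, CTCF in depleted cells and H3K27ac in control cells), and the values of those 3 lists at the sites are given only as description.

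The cells were grown from bone marrow of 8-week-old C57BL/6 mice for 6 days with GM-CSF, and CD11c+ cells were taken. All mice carried the tamoxifen-inducible Cre recombinase CreER, expressed from the Rosa26 locus and so not limited to dendritic cells, and the depleted cells came from mice whose Ctcf alleles were also flanked by loxP sites. 4-OH-tamoxifen was given in culture to both genotypes, so the control cells shared Cre and drug. Cells were left untreated (WT and KO) or were stimulated for 3 h with 100 ng/ml LPS, which bacteria shed and TLR4 binds (WTLPS and KOLPS). Chromatin immunoprecipitation sequencing gave 1 peak list for each condition for CTCF, for SMC1 (a subunit of cohesin), for p65 (a subunit of NF-κB), and for H3K27ac, H3K4me1, H3K4me3 and H3K27me3. STAT5 lists covered WT and KO only, from cells that had received GM-CSF again for 15 min. Depletion was incomplete at the level of binding, since the KO list still held 20151 CTCF peaks and the KOLPS list 11576. With 1 list for each condition and antibody there was no replicate, and no difference could be tested. The 95% Wilson intervals given in brackets cover counting error over sites only. All 10 marker genes of myeloid and dendritic cells had both H3K4me3 and H3K27ac at their promoter in every condition. Of 6 markers each, T cells had 1 or 2 with such a peak, erythroid cells 0 to 3 and hepatocytes 0 or 1 across these lists, and Cd3e and Alb had none in any of them. Of B cell genes, Ebf1 and Pax5 had H3K4me3 in all 4 conditions and Ighm in WT and WTLPS, while H3K27ac was at Ighm in WT and KO and at Ms4a1 in KOLPS.

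CTCF is a zinc finger protein that binds a long DNA motif and halts the ring-shaped cohesin complex as it extrudes chromatin loops, so that cohesin accumulates beside it. Cohesin is also loaded and found at active enhancers without CTCF, where transcription factors, mediator and H3K4me1 and H3K27ac mark the chromatin. In GM-CSF-dependent dendritic cells PU.1, C/EBP and AP-1 factors occupy most enhancers, STAT5 relays the GM-CSF signal, and p65 enters the nucleus after TLR4 is engaged.

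The DNA under the CTCF summits is shown first because the letters found there differ from those at the sites that kept CTCF. Each run holds 50 bp either side of the WT CTCF summit, plus strand of GRCm38 (mm10, RefSeq), and capitals mark any match, on either strand, to CNAGGNGGC (core of the CTCF motif), CCACTAG, AGAAGAGGG or TGTGGTT (the RUNX motif). The first 6 were chosen because they hold a match, and the last because its H3K27ac is described further on.
Tcf12 intron (chr9:71960204-71960304): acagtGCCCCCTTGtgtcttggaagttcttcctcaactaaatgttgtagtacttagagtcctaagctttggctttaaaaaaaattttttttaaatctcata
Sec22b-nearest site (chr3:97934146-97934246): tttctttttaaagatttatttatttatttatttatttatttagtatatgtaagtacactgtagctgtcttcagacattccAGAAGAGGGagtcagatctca
Birc3 intron (chr9:7867117-7867217): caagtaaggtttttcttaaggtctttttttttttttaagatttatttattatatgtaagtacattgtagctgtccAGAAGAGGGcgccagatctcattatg
Pik3r6 intron (chr11:68544662-68544762): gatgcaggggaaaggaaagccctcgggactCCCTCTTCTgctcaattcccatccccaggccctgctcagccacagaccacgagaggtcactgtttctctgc
Zc3h10-nearest site (chr10:128535687-128535787): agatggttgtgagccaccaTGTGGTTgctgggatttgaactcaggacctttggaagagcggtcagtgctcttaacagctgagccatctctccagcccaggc
E330021D16Rik-nearest site (chr6:136424031-136424131): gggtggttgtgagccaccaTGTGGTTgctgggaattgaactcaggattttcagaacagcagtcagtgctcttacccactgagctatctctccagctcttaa
site between Ccl22 and Ccl17 (chr8:94801779-94801879): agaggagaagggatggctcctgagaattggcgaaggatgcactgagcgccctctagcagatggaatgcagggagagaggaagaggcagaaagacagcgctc

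The core CNAGGNGGC was present within 50 bp of the summit at 106 of 2903 lost acetylated sites, 3.65% (3.03 to 4.40). It was found at 15.2% of the 1357 distal acetylated sites that kept a CTCF peak in the KO, at 6.41% of all WT CTCF peaks, and at 0.689% of windows 1 kb away from the lost acetylated sites. Distal lost sites without H3K27ac held it at 6.25% where WT SMC1 was present and at 2.55% where it was absent. The lost acetylated sites thus held this form of the motif above the flanking level and below the level of kept sites. The letters CCACTAG and AGAAGAGGG were added after the frequent letters at these summits had been seen, so their counts are description only. CCACTAG was found at 2.38% of lost and 13.6% of kept acetylated sites. AGAAGAGGG was found at 699 lost acetylated sites, 24.1%, at 6.56% of the kept sites, at 17.0% of all WT CTCF peaks, and at 0.964% of windows 1 kb away. Distal lost sites without H3K27ac held AGAAGAGGG at 22.3% with WT SMC1 and at 18.5% without it. The letters were thus not particular to the acetylated sites among those that lost CTCF. These letters are known from the B2 family of short interspersed repeats of the mouse genome, which carries a CTCF motif. The repeat family itself was not read from an annotation here.

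Repeats were frequent at these summits in the reference sequence as well. The reference marks repeats by lower-case letters, and at 1341 of the 2903 lost acetylated sites, 46.2% (44.4 to 48.0), at least 50% of the window was marked in this way. The share was 12.2% (10.5 to 14.0) at kept acetylated sites, 36.2% at all WT CTCF peaks and 17.9% at distal WT H3K27ac summits without CTCF. Distal lost sites without H3K27ac came close to the acetylated ones, at 41.1% with WT SMC1 and 45.3% without it. Of the lost acetylated sites with AGAAGAGGG, 95.1% were so marked, against 30.7% of those without it. The RUNX letters TGTGGTT stood at 11.1% of lost acetylated sites, 4.05% of kept ones and 2.65% of windows 1 kb away. At distal lost sites without H3K27ac they stood at 8.66% with WT SMC1 and at 8.19% without it. Among the lost acetylated sites they stood at 23.2% of those with AGAAGAGGG and at 7.21% of those without. In both printed examples they lie in a longer run of letters that the examples share. Median GC content of the window was 44.6% at lost and 48.5% at kept acetylated sites. The letters of PU.1 (GAGGAAGT) stood at 0.792%, of AP-1 (TGANTCA) at 2.93%, of C/EBP (TTGCNNAA) at 3.41%, of STAT (TTCNNNGAA) at 1.89% and of NF-kB (GGANTTTCC) at 0.379% of the summits. At distal WT H3K27ac summits without CTCF the shares were 0.552%, 3.20%, 4.46%, 3.403% and 0.339% in that order, so only the PU.1 and NF-kB letters had a higher share at the lost acetylated sites, and their intervals overlapped (0.529 to 1.19 against 0.494 to 0.617 for PU.1).

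The sites ranked below the middle of the CTCF list and high in the H3K27ac list. Their median WT CTCF fold enrichment over background was 5.91 (quartiles 4.43 and 8.86), which lies at the 42.6th percentile of the WT CTCF list, while the H3K27ac peak at the site lay at the 73.3rd percentile of its own list. Kept acetylated sites had a median WT CTCF fold of 21.1 and a median width of 1330 bp, against a width of 510 bp for the lost acetylated sites. The lost acetylated sites were spread over introns (56.1%), intergenic DNA (40.0%) and exons (3.89%). The median distance to the start of the nearest protein-coding gene was 21645 bp, and 27.6% lay within 10 kb. The CTCF summit itself was inside the H3K27ac peak at 1682 sites (57.9%), and 754 sites (26.0%) had another such site within 10 kb. At the edges of the rule, the 330 sites that shared 100 bp or less with their H3K27ac peak had H3K27ac in the KO at 37.3% and SMC1 in the KO at 18.2%, and the 516 lost sites with a WT H3K27ac peak within 200 bp but no shared base had 24.6% and 14.0%. The 299 sites whose summit lay 2.5 to 4 kb from the nearest start had 58.9% and 23.4%, and the 656 lost promoter peaks with a summit 1 to 2.5 kb from a start had 67.5% and 25.6%. The 50 sites with a KO CTCF peak within 500 bp but no shared base had 52.0% and 28.0%, and the 141 weakest kept sites by WT CTCF fold had 53.2% and 34.0%.

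The 5 sites of highest WT CTCF fold lay in introns of Nsmce2 (chr15:59396512-59397893), Pde4d (chr13:109519055-109520426) and Tcf12 (chr9:71959578-71960747), 17.5 kb from the start of Syk (chr13:52564973-52566064), which encodes a tyrosine kinase of immune receptors, and 6.78 kb from that of Pllp (chr8:94702460-94703581). The Nsmce2 site had CTCF fold 29.6 in WT and 23.5 in WTLPS, none in KO, and 4.97 in KOLPS. SMC1 at that site was 19.7 in WT, 14.8 in WTLPS and absent from both KO lists. At the Pde4d site SMC1 was 27.5 in WT and 24.4 in WTLPS and absent from both KO lists, and at the Tcf12 site it was 21.4, 15.2 and absent likewise. The Syk site differed in that SMC1 peaks stood in all 4 lists, with folds of 14.4 (WT), 15.2 (WTLPS), 4.73 (KO) and 5.10 (KOLPS). The Pllp-nearest site had SMC1 of 7.50, 19.2 and 12.5 in WT, WTLPS and KO and none in KOLPS, and it was the only one of the 5 with H3K4me3 peaks (22.4 in WT and 18.2 in KO).

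CTCF itself was found again in WTLPS at 73.3% of the lost acetylated sites (percentage of all WT CTCF peaks, given here and below as background: 79.4%). The KOLPS list, which the rule did not use, had a CTCF peak at 28 of the 2903 sites, 0.965% (background 15.6%). By the rule none had one in KO (background 23.7%). The background of the CTCF libraries held 3.74 (WT), 3.53 (WTLPS), 2.95 (KO) and 2.82 (KOLPS) fragments per base. Whether the lower coverage of the depleted cells accounts for part of the loss at weak sites was not tested.

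SMC1 occupied most of the sites in control cells and few of them after depletion. It had a peak at 2121 sites in WT, 73.1% (71.4 to 74.6), and at 68.2% in WTLPS, against backgrounds of 54.3% and 51.1%. In KO the count was 770, 26.5% (24.9 to 28.2), and in KOLPS 464, 16.0% (14.7 to 17.4), against backgrounds of 9.38% and 5.69%. Of the sites with WT SMC1, 741 (34.9%, 32.9 to 37.0) had SMC1 in KO, and of those with WTLPS SMC1, 22.9% had it in KOLPS. Distal lost sites that had WT SMC1 but no H3K27ac had SMC1 in KO at 4.22% (3.89 to 4.57) and in KOLPS at 1.92%, below the acetylated sites. Kept acetylated sites, which were wider and stronger in CTCF, had it in KO at 54.5% and in KOLPS at 39.4%. Coverage of the SMC1 libraries was close in WT and KO, with 5.40 and 5.34 fragments per base in the background. Thinning the WT peaks to the KO coverage would leave 99.2% of them above the lowest −log10 p of the KO list, against the 34.9% found. For WTLPS and KOLPS (5.77 and 4.50) the expected share was 91.0% against 22.9%. Thinning takes account of depth only, not of the choice of peaks by the first list, and other differences between libraries were not tested. Of the WT SMC1 peaks, 86.4% were found in WTLPS, which had the higher coverage.

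Seen over the 4 conditions, 1082 sites had SMC1 in WT and WTLPS only, 401 in all 4, 308 in all but KOLPS, and 618 in none. Of the 782 sites without WT SMC1, 29 had it in KO (3.71%). The 3 sites of highest WT SMC1 significance among those with SMC1 in WT and WTLPS only were weak in CTCF. The first, in an intron of March1 (chr8:66323872-66324736), had SMC1 folds of 34.8 in WT and 38.0 in WTLPS and a CTCF fold of 4.01. The others, near E330021D16Rik (chr6:136423653-136424188) and in an intron of Uchl5 (chr1:143806084-143806304), had folds of 28.3 and 27.8 in WT but 4.14 and 4.29 in WTLPS, so their rank rested on the WT list. Among sites with SMC1 in all 4 conditions, the Zc3h10-nearest site (chr10:128535506-128535879) had folds of 27.6, 22.0, 7.10 and 5.46 in the order WT, WTLPS, KO and KOLPS. The Map3k8-nearest site had 23.3, 17.8, 3.94 and 4.00, and the Sec22b-nearest site (chr3:97933921-97934587) 22.3, 7.54, 5.68 and 4.19. At all 3 the KO fold was lower than the WT fold, which follows in part from their choice by WT SMC1.

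**Figure D1:**
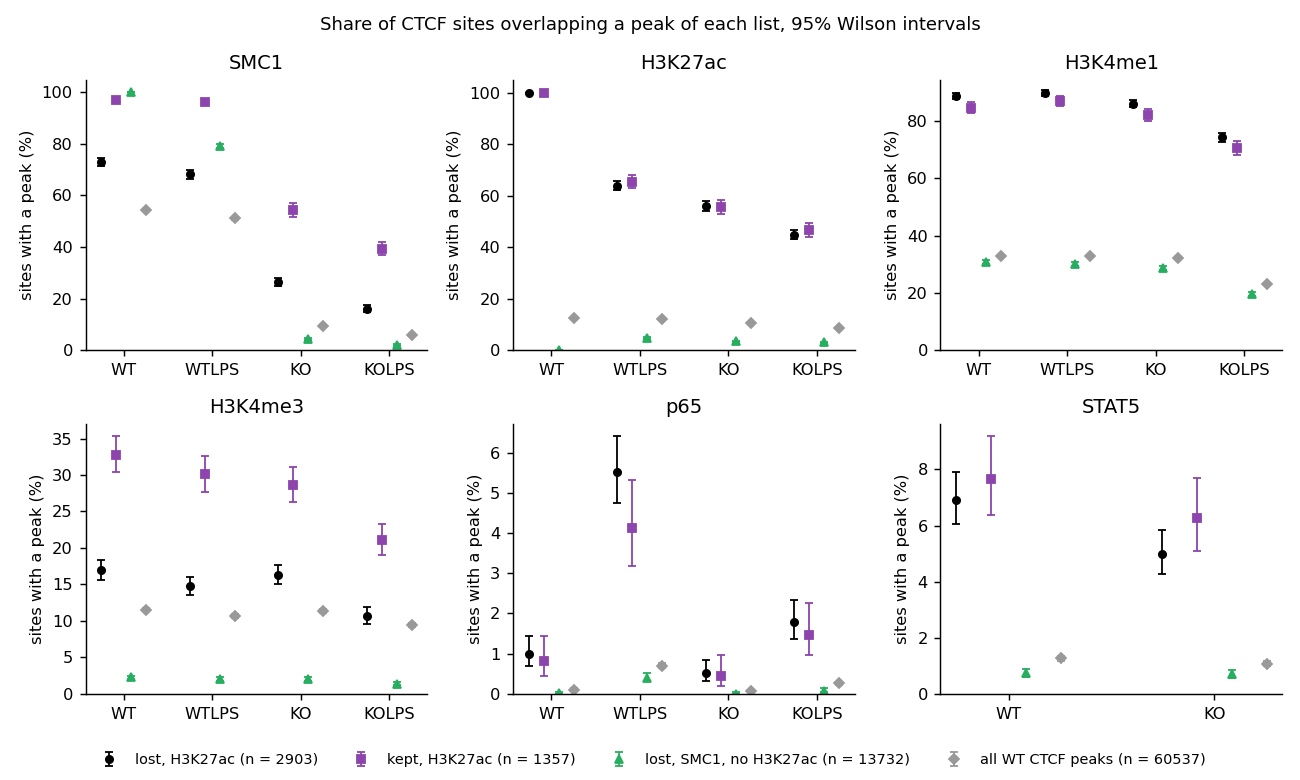
Percentage of sites overlapping a peak (vertical axes) in each condition for 6 antibodies. Points are shares and bars 95% Wilson intervals, for the 2903 lost acetylated sites, 1357 kept acetylated sites, 13732 lost sites with SMC1 but no H3K27ac, and all 60537 WT CTCF peaks. H3K27ac of the lost and kept acetylated sites nearly coincides in WTLPS, KO and KOLPS, whereas SMC1 is lower at the lost than at the kept acetylated sites in all 4 conditions. The kept acetylated sites were wider (median 1330 bp against 510 bp).

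Where SMC1 remained, its summit lay farther from the former CTCF summit. At the 741 sites with SMC1 in both WT and KO, the median distance between the 2 summits was 88 bp in WT and 219 bp in KO. The SMC1 summit was nearer to the CTCF summit in WT at 481 of these sites and nearer in KO at 244. For WTLPS and KOLPS the medians were 124 and 201 bp over 453 sites, while for WT and WTLPS, in which CTCF was present, they were 61 and 64 bp over 1833 sites. With the nearest SMC1 summit at every site with a peak, the WT and KO medians were 61 and 213 bp. They were 32 and 75 bp at kept acetylated sites, and 39.5 and 119 bp at lost sites with SMC1 and no H3K27ac. A greater distance in KO was thus not particular to the lost acetylated sites. SMC1 peaks at the lost acetylated sites had a median fold of 6.25 in WT and 4.89 in KO. Whether weaker peaks contributed to the shift was not tested. The median distance of the SMC1 summit to the WT H3K27ac summit was 402 bp in WT and 395 bp in KO at the same 741 sites. The letters under the SMC1 summits differed too. Within 50 bp of the 2154 WT SMC1 summits at these sites, AGAAGAGGG stood at 17.3%, CTCF's CNAGGNGGC at 3.71%, RUNX letters at 9.33%, PU.1 letters at 3.16%, AP-1 letters at 6.04% and C/EBP letters at 4.60%. At the 774 KO SMC1 summits the shares were 0.904%, 1.55%, 5.81%, 6.85%, 9.43% and 8.01% in that order. The letters of CTCF and RUNX were thus less frequent, and those of PU.1, AP-1 and C/EBP more frequent, under the KO SMC1 summits. TGTGGTT, however, was itself more frequent at sites with AGAAGAGGG. The WT and KO summits also come from different sets of sites. At sites with SMC1 in both lists, the CTCF summits held these letters at 15.5%, 4.05%, 9.85%, 1.48%, 3.91% and 3.37% in that order. At sites with SMC1 in WT and not in KO, the shares were 26.0%, 3.99%, 10.9%, 0.435%, 2.83% and 3.41%. The comparison thus mixes summit positions with the choice of sites, and their parts were not tested.

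**Figure D2:**
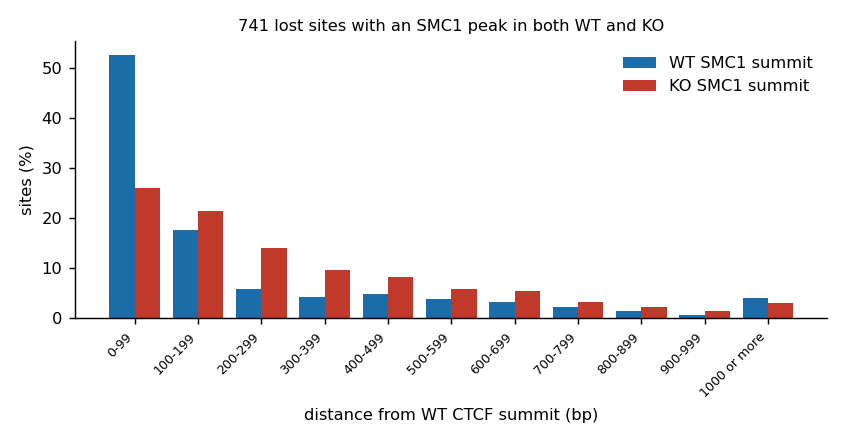
Distance from the WT CTCF summit to the SMC1 summit (horizontal axis, bins of bp) at the 741 lost acetylated sites with SMC1 in both WT and KO, as percentage of sites (bars). In WT 52.6% of summits fall within the first bin, and in KO 25.9%.

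The share of WT SMC1 peaks found again in KO differed with the other peaks at the site. Sites with WT H3K4me1 had 37.1% and those without it 14.2%. Sites with a WT STAT5 peak had 73.3% (66.5 to 79.1) against 31.2% (29.2 to 33.3) without, and sites with a WTLPS p65 peak had 88.2% (82.1 to 92.4) against 30.8% (28.8 to 32.9) without. In 3 groups of similar size and rising WT CTCF fold, the share of WT SMC1 peaks found in KO was 38.2%, 34.3% and 33.6%, with overlapping intervals, although the share with WT SMC1 rose from 51.2% to 74.9% and 94.1%. In 5 equal groups of rising WT H3K27ac significance it was 18.8%, 26.7%, 36.8%, 41.7% and 45.9%. Both gradings use lists that chose the sites, so their values are description only. Sites with AGAAGAGGG had 24.3% (20.6 to 28.3) and those without it 38.0% (35.7 to 40.4). These groups overlap one another, and 67 of the 160 sites with WTLPS p65 lay in the highest H3K27ac group.

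**Figure D3:**
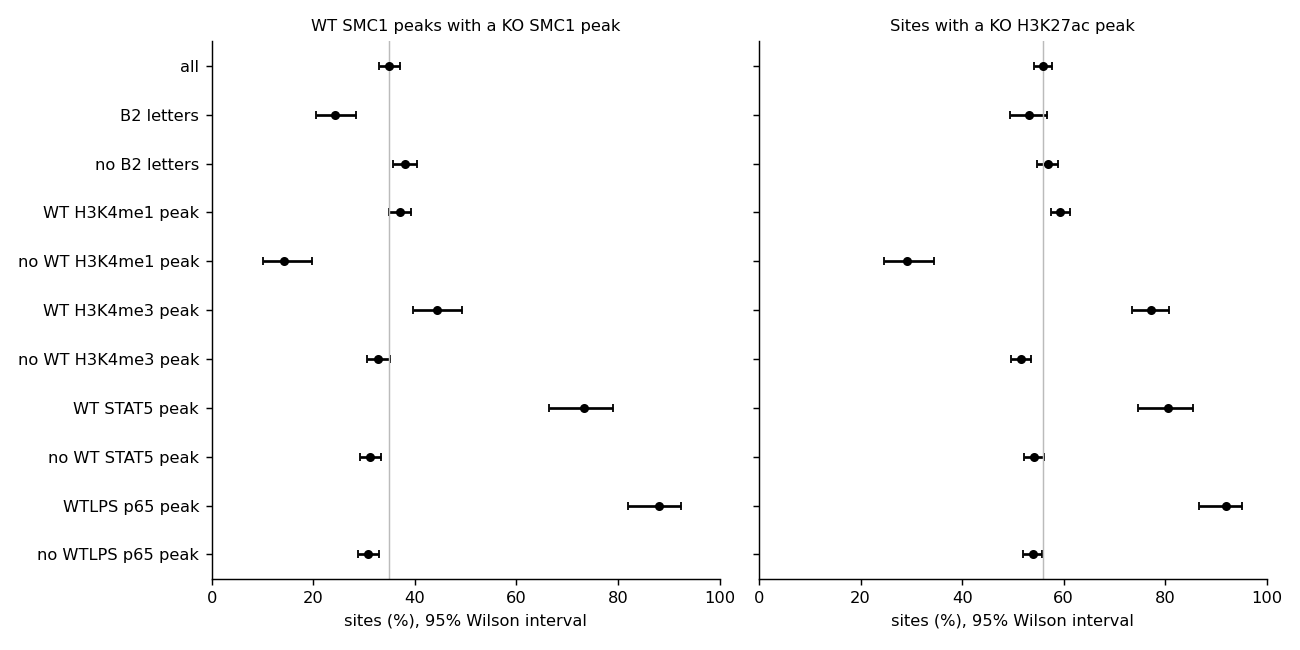
Share of WT SMC1 peaks with an SMC1 peak in KO (left) and share of sites with H3K27ac in KO (right), both in percent, for subsets of the lost acetylated sites (rows, where B2 letters stands for AGAAGAGGG). Points are shares, bars 95% Wilson intervals, and the grey line marks all sites (34.9% and 56.0%). The share is highest at sites with a WTLPS p65 peak in both panels and next highest at sites with a WT STAT5 peak.

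H3K27ac was found again at more than 50% of the sites in KO by an overlap of 1 bp, and at 33.4% with the CTCF summit inside the peak. By the rule all had it in WT (background 12.4%). It was present in WTLPS at 1854 sites, 63.9% (62.1 to 65.6), in KO at 1625, 56.0% (54.2 to 57.8), and in KOLPS at 1302, 44.9% (43.1 to 46.7), with backgrounds of 11.9%, 10.4% and 8.67%. Because the WT list chose the sites, part of any lower share in another list follows from that choice. The rule used neither of the 2 LPS lists. Sites with WTLPS H3K27ac had nonetheless all been chosen for H3K27ac in control cells, so that comparison is not free of the choice. Of the 1854 sites with WTLPS H3K27ac, 1093 had it in KOLPS, 59.0% (56.7 to 61.2). The KO libraries were shallower, with 0.748 and 0.801 fragments per base in the background in KO and KOLPS against 1.173 and 1.198 in WT and WTLPS. At the KOLPS depth 93.1% of the WTLPS peaks would still pass, and at the KO depth 87.0% of the WT peaks. These values take account of depth only, and WTLPS, at a coverage close to that of WT, had a peak at 63.9% of the sites. Other differences between libraries were not tested.

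Sites that kept a CTCF peak in KO had similar values, although only 911 of these 1357 sites (67.1%) had one in KOLPS as well. They were also wider (median 1330 bp against 510 bp) and stronger in CTCF (median WT fold 21.1 against 5.91). A wider site meets a peak more readily, so the groups are not matched, and an effect of CTCF loss on H3K27ac was not tested. Kept acetylated sites had H3K27ac in WTLPS, KO and KOLPS at 65.4% (62.8 to 67.8), 55.6% (52.9 to 58.2) and 46.6% (44.0 to 49.3), each interval overlapping that of the lost sites. Among the kept sites with WTLPS H3K27ac, 60.1% had it in KOLPS. At the 911 sites with CTCF in both depleted lists the KOLPS share was 46.5% (43.3 to 49.8), and 60.2% of those with WTLPS H3K27ac had it in KOLPS. Distal WT H3K27ac peaks without any WT CTCF peak were found in KO at 39.1% and in KOLPS at 32.1%, and the 2876 distal H3K27ac peaks that held a lost site at 57.4% and 49.3%. The latter were stronger and wider, and within the strongest of 5 equal groups of distal peaks the shares in KO were 90.5% with a lost site (median width 1909 bp) and 78.8% without CTCF (1081 bp). In the weakest group they were 22.2% and 17.6%. SMC1 was at 70.7% of the peaks with a lost site in WT and 36.3% in KO, and at those without CTCF it was 20.4% and 15.5%. In the strongest group it was 89.5% and 68.2% with a lost site, and 55.0% and 47.0% without CTCF. Peaks with a lost site were thus found again in KO no less often than peaks without CTCF by H3K27ac, while their SMC1 share differed more between WT and KO.

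**Figure D4:**
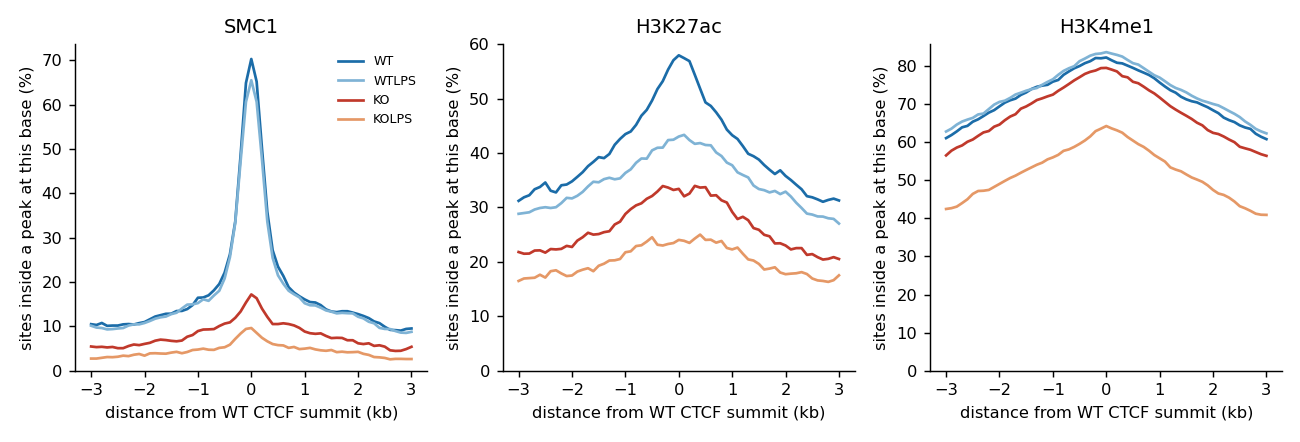
Percentage of the 2903 lost acetylated sites inside a peak (vertical axes) at each distance from the WT CTCF summit (horizontal axes, kb) for SMC1, H3K27ac and H3K4me1 in 4 conditions. SMC1 is at 70.3% at the summit in WT and 17.2% in KO, while H3K27ac is lower in KOLPS than in WTLPS both at the summit (43.0% in WTLPS, 24.0% in KOLPS) and 3 kb to its left (28.8% and 16.5%).

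By condition, 943 sites had H3K27ac in all 4 lists, 602 in WT only and 480 in WT and WTLPS only. Among the last, the 5 of highest WT significance are described one by one. The first, 17.9 kb from the start of Eif2ak3 (chr6:70826354-70826753), the endoplasmic reticulum stress kinase PERK, had H3K27ac fold 21.2 in WT and 10.5 in WTLPS. The second lay between the chemokine genes Ccl22 and Ccl17, 8.62 kb from the start of Ccl17 (chr8:94801559-94801979), with 19.3 and 22.8. The others, in introns of Birc3 (chr9:7866929-7867395), an inhibitor of apoptosis, Pik3r6 (chr11:68544490-68544833), a subunit of phosphoinositide 3-kinase gamma, and Samhd1 (chr2:157127802-157128425), a nucleotide hydrolase, had 19.3 and 4.10, 18.4 and 4.10, and 16.1 and 21.4. All 5 were without H3K27ac in KO and KOLPS by the way they were chosen. H3K4me1 remained in KO at 4 of them, with folds from 2.58 to 3.29, and was absent at the Pik3r6 site. SMC1 was absent from all 4 lists at the Eif2ak3 and Ccl17 sites and from both KO lists at the other 3.

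H3K4me1, the mark of enhancers whether active or not, was found again at most of the sites after depletion. In WT it covered 88.8% of the lost acetylated sites and in WTLPS 89.8%, against 86.2% in KO and 74.4% in KOLPS (backgrounds 33.0%, 32.9%, 32.3% and 23.2%). Kept acetylated sites were similar, with 84.75% in WT and 82.2% in KO. Of the sites with WT H3K4me1, 93.9% had it in KO, and of those with WTLPS H3K4me1, 81.4% had it in KOLPS. In all, 2070 sites had it in all 4 lists and 172 in none. The 325 sites without WT H3K4me1 had H3K27ac in KO at 29.2%, against 59.4% for those with it. The lower KOLPS value also held for all WT CTCF peaks, and whether it came from that library was not tested.

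H3K4me3, the mark of active starts, lay at 493 sites in WT (17.0%) and 474 in KO (16.3%), against backgrounds of 11.6% and 11.4%, although all sites lay outside the promoter of each gene's longest transcript. Kept acetylated sites had it more often, at 32.8% in WT and 28.6% in KO. Other annotated transcripts started within 2.5 kb of 409 lost acetylated sites, and these held 181 of the 493 sites with WT H3K4me3. At the 2494 sites away from every transcript start, the H3K4me3 share was 12.5% in WT and 11.8% in KO. These 493 sites had H3K27ac in KO at 77.3%, against 51.6% for the rest. The repressive mark H3K27me3 lay at 44 sites in WT (1.52%) and 63 in KO (2.17%), against backgrounds of 11.6% and 14.8%. Kept acetylated sites had it at 4.79% in WT and 7.66% in KO.

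p65 had a peak that overlapped few of the sites, and most of those after LPS. It had a peak at 29 sites in WT and 160 in WTLPS, 0.999% and 5.51% (4.74 to 6.40), with backgrounds of 0.109% and 0.699%. In KO it was at 15 sites (0.517%) and in KOLPS at 52, 1.79% (1.37 to 2.34), with backgrounds of 0.0743% and 0.259%. The CTCF summit itself lay inside a p65 peak at 67 sites in WTLPS and at 26 in KOLPS. Kept acetylated sites had p65 at 4.13% in WTLPS and 1.47% in KOLPS. The LPS list thus held p65 at more sites than the untreated list in both genotypes, and the KOLPS list at fewer than the WTLPS list. Of the 160 WTLPS sites, 45 had p65 in KOLPS, 28.1% (21.7 to 35.5), and kept acetylated sites gave 30.4% (19.9 to 43.3). Of all 4435 distal WTLPS p65 peaks 21.7% were found in KOLPS, so the loss was general to the list. The lists held 5465 peaks in WTLPS and 1752 in KOLPS, at 0.855 and 0.817 fragments per base. At the 115 sites that had p65 in WTLPS and not in KOLPS, H3K27ac was present in KOLPS at 83.5% and SMC1 at 71.3%.

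The 5 sites of highest WTLPS p65 fold included a site 13.4 kb from the start of Ccdc88b (chr19:6871333-6871834), with p65 fold 80.3 in WTLPS and no p65 peak in the other 3 lists. Its SMC1 folds were 10.9 (WT), 16.1 (WTLPS), 9.62 (KO) and 12.01 (KOLPS). A site in an intron of Rapgef2 (chr3:79173268-79173597), an exchange factor for the small GTPase Rap1, had p65 in all 4 lists, 44.4 (WT), 67.9 (WTLPS), 25.8 (KO) and 47.9 (KOLPS). Its H3K27ac folds were 11.0, 30.03, 8.58 and 16.1 in that order, higher with LPS in both genotypes. A site in an intron of Pdgfrb had p65 folds of 32.2, 38.1, 20.8 and 18.4. A site 3.59 kb from Ppm1n (chr7:19276187-19276920) had 12.3, 26.4, 14.1 and 12.1, and a site nearest Sgip1 (chr4:102624425-102624726) 12.8, 25.9, 12.3 and 13.8. Of these 5, only the Ccdc88b site lacked p65 in KOLPS. The WTLPS p65 summit lay outside the CTCF site near Ccdc88b, Ppm1n and Sgip1, and inside it in the Rapgef2 intron.

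STAT5 was at 201 sites in WT, 6.92% (6.06 to 7.90), and at 145 in KO, 4.99% (4.26 to 5.85), with backgrounds of 1.28% and 1.08%. Kept acetylated sites had it at 7.66% in WT and 6.26% in KO. Of the 201, 130 had STAT5 in KO, 64.7% (57.9 to 71.0), close to the 64.7% of all 6668 distal WT STAT5 peaks. The KO list had the deeper library, 1.70 against 1.33 fragments per base. Sites with WT STAT5 had H3K27ac in KO at 80.6% and SMC1 in KO at 69.7%. The letters TTCNNNGAA stood within 50 bp of 31.6% of the 206 WT STAT5 summits at the lost acetylated sites and of 37.9% of all WT STAT5 summits, and the NF-kB letters within 50 bp of 7.45% of the 161 WTLPS p65 summits there and of 6.46% of all. The runs that follow are shown for 4 of the sites of highest p65 or STAT5 fold that hold such letters, in capitals, and for the site of highest p65 fold, which holds none and whose letters repeat in tandem, 50 bp either side of the summit of that factor, plus strand of GRCm38 (mm10, RefSeq).
Ccdc88b-nearest p65 summit (chr19:6870960-6871060): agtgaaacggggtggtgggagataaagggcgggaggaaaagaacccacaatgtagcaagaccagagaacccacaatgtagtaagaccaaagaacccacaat
Sgip1-nearest p65 summit (chr4:102624282-102624382): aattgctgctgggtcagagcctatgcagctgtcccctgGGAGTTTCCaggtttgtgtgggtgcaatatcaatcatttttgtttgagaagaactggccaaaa
Bcl2l11-nearest STAT5 summit (chr2:128221885-128221985): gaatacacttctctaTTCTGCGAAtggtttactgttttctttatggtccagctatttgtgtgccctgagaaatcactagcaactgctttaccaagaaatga
Prkcb intron STAT5 summit (chr7:122322455-122322555): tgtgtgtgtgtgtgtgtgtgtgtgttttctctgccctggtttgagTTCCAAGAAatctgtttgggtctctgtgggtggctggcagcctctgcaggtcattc
Gvin1-nearest STAT5 summit (chr7:106236864-106236964): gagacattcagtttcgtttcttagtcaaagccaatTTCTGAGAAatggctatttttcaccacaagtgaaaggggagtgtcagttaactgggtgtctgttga

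The site of highest WT STAT5 fold lay 26.0 kb from the start of Gtpbp4 (chr13:9022044-9022423), with 59.3 in WT and 35.9 in KO. The site nearest Bcl2l11 (chr2:128222038-128222739), which encodes the cell death factor Bim, had 48.5 and 34.8, and its H3K27ac folds were 5.98 in WT, 9.55 in WTLPS, none in KO and 5.55 in KOLPS. The Prkcb intron (chr7:122322428-122323006), in the gene of protein kinase C beta, had STAT5 folds of 44.2 and 39.9. The Uqcrfs1-nearest site (chr13:30582568-30583064) had 42.5 and 36.2, and the Gvin1-nearest site (chr7:106236851-106237583) 41.2 and 33.6. All 5 kept STAT5 in KO with a lower fold, but they were chosen for the highest WT fold, so a lower value in another list follows in part from the choice. The WT STAT5 summit lay outside the CTCF site at the Gtpbp4 and Bcl2l11 sites and inside it at the Prkcb, Uqcrfs1 and Gvin1 sites. At the Gvin1-nearest site, close to interferon-inducible GTPase genes, H3K27ac was 12.04 (WT), 66.4 (WTLPS), 10.2 (KO) and 24.3 (KOLPS).

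Of 21938 protein-coding genes, 3476 had a lost acetylated site within 50 kb of their start, 15.8% (the background for the lists that follow). Genes of dendritic cell function were more often near a site, by count, than genes at large. The share was 11 of 14 for the GM-CSF receptor and STAT5 pathway, 11 of 14 for migration and adhesion, 14 of 19 for antigen presentation and costimulation, and 16 of 22 for LPS-induced cytokines and chemokines. It was 7 of 12 for lectin and scavenger receptors, 12 of 29 for myeloid and dendritic cell transcription factors, 12 of 33 for TLR and NF-κB signalling, and 3 of 13 for CTCF, cohesin and its regulators. Genes with H3K4me3 at their promoter in WT had a site at 21.7% and genes without it at 8.14%, so active genes in general were nearer to such sites. The sites were chosen by H3K27ac of these cells, so nearness to genes active in them follows in part from the rule. Neighbouring genes share sites, so genes of a list are not independent. Where a site lay within 50 kb, H3K27ac at the promoter was found again in KO at 94.0% of the genes that had it in WT, and at 92.9% of the genes with no site near.

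**Figure D5:**
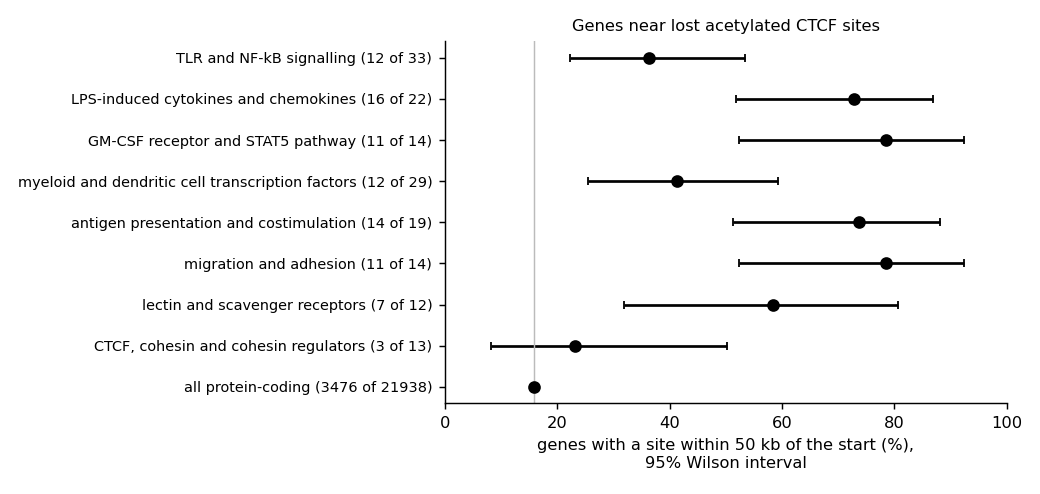
Percentage of genes with a lost acetylated site within 50 kb of the start (horizontal axis) for 8 gene lists and all protein-coding genes (rows, with counts). Points are shares and bars 95% Wilson intervals, and the grey line marks all protein-coding genes (15.8%). The intervals of 7 lists lie above the line, and that of CTCF and cohesin genes crosses it.

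The densest cluster lay on chromosome 11 around Cxcl16, the chemokine ligand of CXCR6, where Med11, Zmynd15 and Cxcl16 each had 9 sites within 50 kb, and Vmo1 and Tm4sf5 each had 8. Of the 9 sites near Cxcl16, SMC1 was present at 6 (WT), 8 (WTLPS), 3 (KO) and 1 (KOLPS), while H3K27ac was present at 9, 9, 7 and 8. Neighbouring sites here had equal WT H3K27ac folds, such as 29.45 at the sites 11.3 and 12.5 kb upstream of Cxcl16. Such sites may share 1 wide peak, so the H3K27ac counts are of sites and not of separate peaks. The strongest CTCF site of the cluster (chr11:70499690-70500948) had CTCF folds of 16.5 in WT and 14.1 in WTLPS, SMC1 folds of 13.7, 11.4, 3.79 and none, and H3K27ac folds of 9.33, 12.7, 7.44 and 4.998 in the order WT, WTLPS, KO and KOLPS. It also had the only p65 peak among the 9, in WTLPS (5.39).

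Among chemokine genes, Ccl17 and Ccl22, whose products draw CCR4-bearing T cells, each had 4 sites and shared 2 of them. A shared site 24.5 kb upstream of Ccl17 had CTCF 17.3 in WT and SMC1 of 11.9, 11.4, 4.10 and 3.94 in the order given above, with H3K27ac of 8.49, 6.29, 5.72 and 4.998. The site 4.87 kb upstream of Ccl22 had H3K27ac of 4.14 in WT and 9.55 in WTLPS and none in either KO list, and SMC1 of 4.84 and 4.73 and none likewise. The site 4.84 kb upstream of Ccl17 lay in the same WT H3K27ac peak (19.3) as the printed one, had no SMC1 in any list, and had H3K27ac of 9.15 in KO and 9.04 in KOLPS. Of these neighbouring sites, one thus had H3K27ac in the KO lists and the other had none. Ccl3 had 3 sites, and the one 14.3 kb downstream had CTCF 22.4 in WT, SMC1 of 17.3 in WT and 16.1 in WTLPS with no peak in the KO lists, and STAT5 of 6.44 in WT and 5.55 in KO.

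Of the other lists, Icam1, an adhesion molecule for leukocytes, had 4 sites. The one 18.5 kb upstream had SMC1 of 31.4, 26.3 and 5.52 in WT, WTLPS and KO and none in KOLPS, with H3K27ac of 8.74, 6.37, 12.6 and 6.11. The one 3.44 kb upstream of its start had SMC1 of 5.92, 6.74, 4.42 and 3.64 and H3K27ac of 4.997, 10.9, 7.26 and 4.84, with p65 in WTLPS only (10.8). Ccr7, the receptor that guides dendritic cells to lymph nodes, had 4 sites, and at the one 14.8 kb upstream SMC1 was present in WTLPS only (12.6) while H3K27ac was 19.8, 25.5, 12.6 and 15.0. At the one 17.1 kb upstream, SMC1 was 6.56 in WT and 10.3 in WTLPS with no peak in the KO lists, and H3K27ac was 19.8 and 25.5 in control cells, none in KO and 4.44 in KOLPS. The control H3K27ac folds of the sites 14.8 and 17.1 kb upstream were equal, as where 1 wide peak meets both. They may thus not give the acetylation at each site. Mcl1, which protects from apoptosis, had 4 sites, all with H3K27ac in all 4 lists and 1 with SMC1 in KO. Jak2, the kinase of the GM-CSF receptor, had 4 sites, all but 1 with SMC1 in WT and 1 with SMC1 in KO, and the one 12.3 kb downstream of its start had H3K27ac of 11.0 in WT and 3.77 in WTLPS with no peak in the KO lists.

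Tnip1, which restrains NF-κB signalling, had 3 sites, of which the one 2.87 kb upstream had p65 of 8.08 in WTLPS and H3K27ac of 4.60, 8.19, 5.72 and 24.4. Irak2, a kinase downstream of TLR4, had 3 sites, all in its first 36.6 kb and all with H3K27ac in all 4 lists, and 2 of them with SMC1 in all 4. Trim25 had 3 sites, with SMC1 at 2 in WT, 1 in WTLPS and none in either KO list. H3K27ac was at 3, 2, 2 and 1 of the Trim25 sites in WT, WTLPS, KO and KOLPS. Nfil3 had 3 sites, 2 with SMC1 in WT and none with SMC1 in KO, and Batf3, a factor of cross-presenting dendritic cells, had 3, all with SMC1 in WT and 2 with SMC1 in KO. H2-DMb1, which helps load peptides on MHC class II, had 3 sites, with SMC1 of 14.2 in WT and 4.58 in KO at the one 4.18 kb downstream of its start. Clec9a, a receptor for dead cells, had 4 sites, of which 3 had SMC1 in WT and 2 in KO, and at the one 13.2 kb upstream the SMC1 fold was 5.31 in WT and 37.5 in WTLPS, and Clec4d had 3, of which 2 had SMC1 in WT and 1 in KO.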

How the data were processed

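ChIP-seq peak lists of CTCF, SMC1, p65, STAT5 and 4 histone marks were analysed, 30 lists of 34 libraries, since 4 inputs had none. The submitters' processing notes name BWA (v0.7.12), Picard (v1.77), MACS2 (v2.1.2) and deepTools (v3.1.3), with mm10. Each deposited list gives a position, a fold enrichment over the local background (a ratio), −log10 p and −log10 q values, an integer score and, for narrow lists, a summit offset, all from MACS2 as run by the authors. The CTCF and SMC1 lists held only peaks with −log10 p of at least 7. The study's reporting form gives 2 biological replicates of ChIP-seq per condition and says of the experiments in general that replicates were merged, but does not say which reads each list came from. H3K4me1 peak names carry another antibody supplier than the labels.

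A site had a peak of another list where they shared at least 1 bp. Each site was given the fold of its most significant overlapping peak, so 1 wide peak could give several sites the same fold. The summit of that peak could lie outside the site. Genes and promoters came from GENCODE vM21, sequences and soft-masked repeats from RefSeq GRCm38. Fragments per base in the background were recovered from fold and −log10 p by the Poisson model of MACS2. Shares have 95% Wilson intervals, which cover counting error only. No test of a condition was run, because each condition and antibody has 1 list. Named sites were those of highest WT CTCF fold (5), of highest WT SMC1 −log10 q with SMC1 in control cells only (3) or in all 4 conditions (3), of highest WTLPS p65 fold (5), of highest WT STAT5 fold (5), and of highest WT H3K27ac −log10 q with H3K27ac in control cells only (5). Named genes were the 5 with most sites within 50 kb and up to 3 of each list. Of those, Pim1, Id2, Tap1, H2-DMa, Ccr1, Clec4n, Mau2, Pds5a and Zfp143 are not described in the text. The members and lists were chosen with earlier results of these data known. Alternatives were a summit inside the peak, 50% of the site covered, −log10 q of at least 5, every transcript start, no KO CTCF peak within 1 kb, no X or Y, and distances of 20 and 100 kb. The calculations were tested on simulated data (Python 3.11.15, numpy 2.4.6, pandas 2.3.3, scipy 1.17.1, matplotlib 3.10.9). The B cell marker list is reported in part.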

Additional observations from a re-analysis of the deposited data

Results flagged for a closer look

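The H3K4me1 share of the lost acetylated sites rose by 1.04 percentage points with LPS in control cells and fell by 11.7 points in depleted cells, a difference of -12.8 points. The H3K4me1 share of all WT CTCF peaks was also lower in KOLPS (23.2%) than in WT, WTLPS and KO (33.0%, 32.9% and 32.3%). The H3K27me3 share rose by 0.654 points with depletion in untreated cells and fell by 0.379 points with LPS, a difference of -1.03 points that rests on 44, 63, 27 and 16 sites in WT, KO, WTLPS and KOLPS. Both were listed because the direction was opposite in the 2 settings, and neither difference was tested, as each condition has 1 list.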

How the results depend on the processing

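Of 64 alternatives, 34 kept a share within its interval, or a count within 1.5 times, and 30 moved it. With the CTCF summit required inside the other peak, the rule gave 1682 sites. The shares of all 2903 sites with the CTCF summit inside a peak were 43.0%, 33.4% and 24.0% for H3K27ac in WTLPS, KO and KOLPS, 70.3%, 17.2% and 9.64% for SMC1 in WT, KO and KOLPS, 2.31% and 0.896% for p65 in WTLPS and KOLPS, and 2.58% for STAT5 in KO. With 50% of the site covered, the rule gave 1547 sites, and the shares of all 2903 in the same order were 41.8%, 29.1% and 19.5%, 60.9%, 14.9% and 8.23%, 2.03% and 0.517%, and 2.21%. With −log10 q of at least 5 in the rule and the lists (1990 sites), H3K27ac was 59.2% in WTLPS and 41.2% in KOLPS, SMC1 76.4%, 30.6% and 17.7%, and STAT5 6.03%. Thinned to KO coverage, which takes account of depth only, the shares would be 87.0% for H3K27ac and 72.5% for SMC1. Genes with a site made up 7.19% within 20 kb and 26.9% within 100 kb. The cause of these moves was not tested beyond the change of setting itself. No paired analysis was possible because each condition and antibody has 1 list. Absence of a peak says only that the list's threshold was not reached at that coverage.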
